A study of Homo sapiens with 4 samples.

Results

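The 10 genes described here are brakes on the cell cycle and a nuclear envelope protein whose loss marks senescent cells: the cyclin-dependent kinase (CDK) inhibitors CDKN1B, CDKN1C, CDKN2A, CDKN2B, CDKN2C and CDKN2D, the retinoblastoma (RB) family genes RB1, RBL1 and RBL2, and LMNB1, which encodes lamin B1. They were chosen by name, and all 10 were among the 38137 genes measured. RNA was sequenced from xenografts of A549, a human lung adenocarcinoma cell line, grown in the flank of male BALB/c athymic nude mice that were 6 weeks old. There was 1 library for each of 4 groups of 5 mice: control tumors, tumors of mice given aerobic exercise alone, tumors given radiation alone, and tumors given the combination. Exercise was a treadmill run of 30 min at 8.0 m/min, radiation was 2 Gy, and in the combination the run came before irradiation on the same day, with 3 sessions per week for 2 weeks. Athymic nude mice lack mature T cells, and a tumor carries host cells beside the A549 cells. Whether a library held RNA of a single tumor or of several is not given in the sources used here.

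CDKs, each paired with a cyclin, drive a cell from G1 into S phase by phosphorylating the RB family, which otherwise holds E2F transcription factors and their target genes in check. The INK4 inhibitors (CDKN2A to CDKN2D) block CDK4 and CDK6, while the CIP/KIP inhibitors (CDKN1B and CDKN1C here, with CDKN1A not described) bind a wider range of cyclin-CDK complexes. RBL1 and RBL2 join the MuvB proteins to form the DREAM complex, a repressor of cell cycle genes in quiescent cells, and loss of lamin B1 is a widely used mark of senescence, a state that irradiated cells can enter.

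Totals of 33432637 to 35408705 reads were assigned to genes per library, and counts were scaled by the trimmed mean of M values (TMM) to CPM, a read count relative to library size. Log2 ratios between libraries were computed where the mean count reached 20, which was so for 19393 genes and 8 members, while CDKN2A and CDKN2B were below this minimum. With 1 library per group no difference has a replicate check, and the 95% intervals (exact Poisson for a level, exact Clopper-Pearson for a fold) cover counting error only. A difference in tumor RNA can come from fewer cells of a type or from less RNA per cell, and these cannot be told apart here. Epithelial markers (EPCAM, CDH1 and 4 keratins) summed to 5682 to 6509 CPM. The 9 alveolar type II markers summed to 150 to 164 CPM, most of it from ABCA3 with 136 to 155 CPM. Within this list SFTPC and SFTPA2 had at most 3 reads in any library, SFTPB and NKX2-1 at most 4, and SFTPA1 at most 5. Only 4 of the 9 reached the minimum mean count of 20. Genes listed as markers of other cell types differed between libraries. In control, exercise, radiation and combination, 9 skeletal muscle genes summed to 3.89, 5.41, 38.7 and 49.6 CPM. In the same order, 9 fibroblast genes summed to 333, 339, 217 and 189 CPM. The reads were aligned to the human genome, and the host is mouse. Whether these counts come from A549 cells or from mouse reads was not tested. Levels within a list differed widely. Among fibroblast genes COL1A1 had 2660 to 5841 reads and THY1 at most 3. Among macrophage genes CSF1R had 8208 to 9933 reads and PTPRC at most 15.

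RBL1 and CDKN2C were the members with an E2F motif just upstream of an annotated start, so their sequences are shown before their levels, with that of LMNB1, the member with the largest differences, for comparison. The windows are the 250 bases before the start, from RefSeq (GRCh38.p14), written 5′ to 3′ on the gene's strand, with motif matches in capitals. They lie at chr20:37095998-37096247 (minus strand) for RBL1, chr1:50968456-50968705 (plus strand) for CDKN2C and chr5:126776886-126777135 (plus strand) for LMNB1.
RBL1: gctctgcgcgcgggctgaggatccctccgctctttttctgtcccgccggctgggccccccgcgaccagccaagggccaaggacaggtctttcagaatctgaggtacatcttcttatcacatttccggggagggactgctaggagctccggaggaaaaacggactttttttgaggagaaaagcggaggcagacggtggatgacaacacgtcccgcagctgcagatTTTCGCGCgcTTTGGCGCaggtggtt
CDKN2C: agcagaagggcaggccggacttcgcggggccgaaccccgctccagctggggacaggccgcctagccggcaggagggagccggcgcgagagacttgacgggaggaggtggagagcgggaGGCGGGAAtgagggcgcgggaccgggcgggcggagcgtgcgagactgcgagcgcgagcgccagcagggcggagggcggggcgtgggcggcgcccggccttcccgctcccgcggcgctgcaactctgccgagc
LMNB1: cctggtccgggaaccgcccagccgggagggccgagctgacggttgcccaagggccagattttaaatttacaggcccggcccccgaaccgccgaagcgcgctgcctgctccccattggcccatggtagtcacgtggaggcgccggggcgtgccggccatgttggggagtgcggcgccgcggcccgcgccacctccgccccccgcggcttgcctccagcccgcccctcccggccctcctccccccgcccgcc

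The letters searched on both strands were TTTCCCGC, TTTCGCGC, TTTGCCGC, TTTGGCGC and TTCCCGCC for E2F, and TTTGAA and TTCGAA for the cell cycle genes homology region (CHR), the element read by MuvB. RBL1 held TTTCGCGC 26 to 19 bases upstream and TTTGGCGC 16 to 9 bases upstream, on the gene's strand and without overlap. CDKN2C held TTCCCGCC on the opposite strand, 132 to 125 bases upstream. Of 14 windows of 9 members, 2 held an E2F match and 0 a CHR match, where 4.76% and 14.3% of all 35116 windows of this length did. CDKN1C had no window in the table, and the window listed for RB1 is that of an internal start. A match describes letters only, and the absence of one says nothing on the factors.

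CDKN1B, which encodes p27, the main brake on CDK2 in resting cells, lies at chr12:12717368-12722369 on the plus strand. It had 3951 reads in the control library and 3148, 2582 and 3001 in the exercise, radiation and combination libraries, or 111, 91.1, 74.2 and 91.6 CPM. Control was the highest library and radiation alone the lowest, and the exercise and combination libraries lay between them with overlapping counting intervals (88.0 to 94.3 and 88.4 to 94.97 CPM). CDKN1B was 1.49-fold lower with radiation than in control (95% interval 1.42 to 1.57) and 1.21-fold lower with exercise (1.16 to 1.27). The combination was 1.23-fold above radiation alone (1.17 to 1.30) and at 1.01-fold the level of exercise alone (0.956 to 1.06).

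For CDKN1B the log2 ratio of the irradiated to the unirradiated library was −0.58 without exercise and 0.01 with it. The departure from additivity, taken as (combination minus exercise) minus (radiation minus control), was 0.58 on the log2 CPM scale, with a counting interval of 0.48 to 0.69. Whether the effects differ beyond the spread between tumors was not tested. SKP2, the F-box protein that marks p27 for degradation, had 834, 792, 729 and 663 reads in control, exercise, radiation and combination. The ratio of SKP2 to CDKN1B reads within a library, a pair chosen after its values were seen, was 0.211 in control and 0.282 with radiation alone (0.260 to 0.307), with 0.252 and 0.221 with exercise and in the combination.

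CDKN1C, an imprinted gene at chr11:2883218-2885775 (minus strand) whose product is p57, was at the edge of detection. It had 25, 25, 21 and 30 reads in control, exercise, radiation and combination, or 0.700, 0.724, 0.604 and 0.916 CPM. The largest of its 5 ratios was that of the combination to radiation alone, 1.505-fold with an interval of 0.840 to 2.79, and every interval of this gene included 1. A difference in CDKN1C was not detectable at this depth.

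The INK4 genes comprised a pair with reads and a pair with almost none. CDKN2C, encoding p18 at chr1:50960745-50974634 (plus strand), had 911, 797, 635 and 699 reads in control, exercise, radiation and combination. These were 25.5, 23.1, 18.3 and 21.3 CPM, so control was again highest and radiation alone lowest. CDKN2C was 1.40-fold lower with radiation than in control (1.26 to 1.55) and 1.20-fold lower in the combination (1.08 to 1.32). The combination was 1.17-fold above radiation alone (1.05 to 1.30), and against exercise alone the interval of its fold included 1 (0.835 to 1.03). Its departure from additivity was 0.37 (0.16 to 0.58).

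CDKN2D, encoding p19 at chr19:10566460-10568979 (minus strand), had few reads, with 80, 86, 57 and 77 in control, exercise, radiation and combination, or 2.24, 2.49, 1.64 and 2.35 CPM. Radiation alone was the lowest library of this gene too. The fold of the combination to radiation alone was 1.43, with an interval from 1.01 to 2.06, and the intervals of the other 4 ratios included 1.

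**Figure D1:**
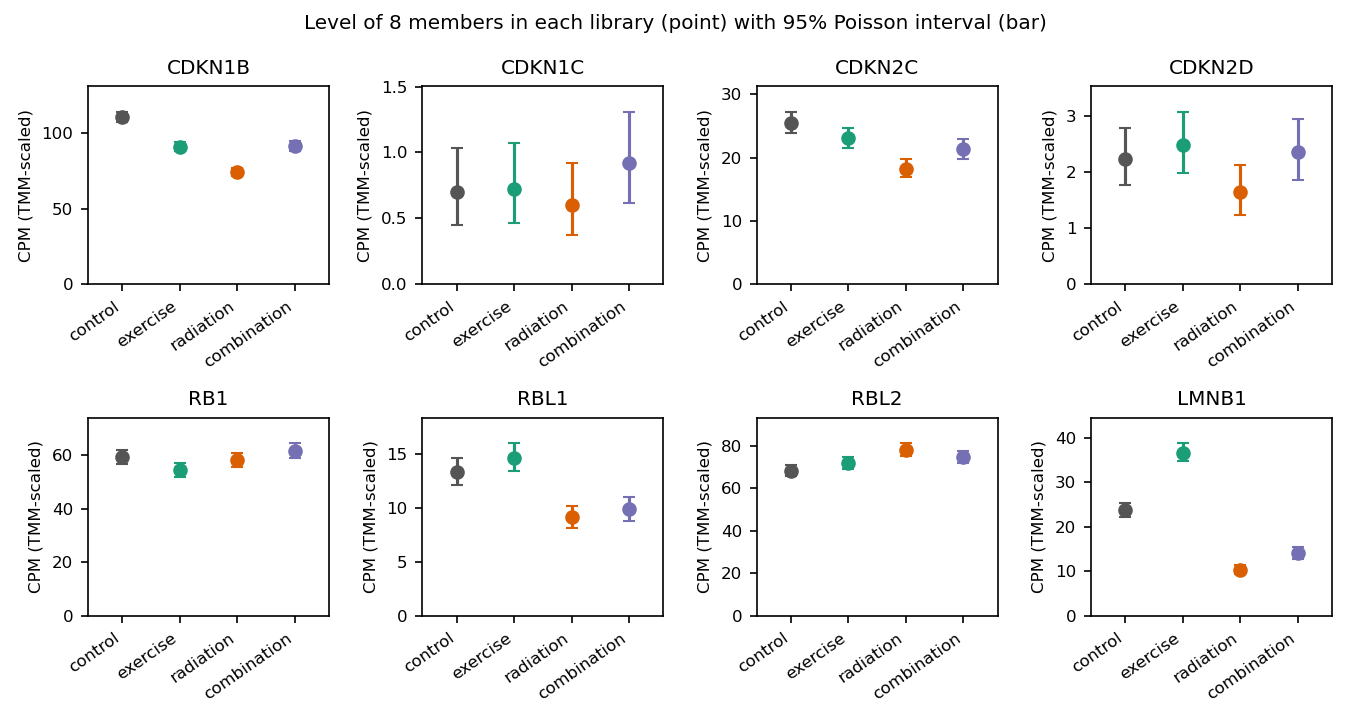
Level of the 8 members compared, in CPM on the vertical axis of each panel, in the 4 libraries on the horizontal axis; points are the values and bars the 95% Poisson intervals. Radiation alone was the lowest library for CDKN1B, CDKN1C, CDKN2C, CDKN2D, RBL1 and LMNB1, while RBL2 was lowest in control and RB1 with exercise alone. The interval of the lowest library was clear of the others only for CDKN1B, CDKN2C and LMNB1.

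CDKN2A and CDKN2B, the neighboring INK4 genes at 9p21, were at or near 0 in every library. CDKN2A, which encodes p16 and, from another reading frame, the p53 stabilizer p14ARF, had 1 read in control and 0 in the other 3 libraries. CDKN2B, encoding p15, had 0 reads in all 4. The floor of 3 counts set for a library with 0 reads was 0.0840, 0.0868, 0.0863 and 0.0916 CPM in control, exercise, radiation and combination, and no fold is given for either gene, as every count lay below it. The exact Poisson upper limits, as used for the other levels, were 0.103 to 0.113 CPM for 0 reads and 0.156 CPM for the 1 read of CDKN2A. A549 is known for a homozygous deletion at CDKN2A, and RNA counts do not test whether DNA is present. CDKN2A and CDKN2B are paralogs, so the assignment of single reads between them is uncertain.

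Of 12 neighboring genes listed, 11 had reads in all 4 libraries and 1, CDKN2A-DT, had 0 in each. MTAP, the methylthioadenosine phosphorylase gene on the telomeric side of CDKN2A, had 328, 352, 290 and 252 reads in control, exercise, radiation and combination. The antisense RNA CDKN2B-AS1 (ANRIL) had 1282, 1205, 1222 and 1178 reads, and DMRTA1, on the far side of CDKN2B, 222, 220, 268 and 293. Of these neighbors 10 were compared, and 0 were 2-fold apart between radiation and control, beside 2.78% of all genes. The radiation term of the additive model passed for 0 in edgeR, beside 9.30% of all genes, and for 0 in DESeq2. Among 10 genes, counts of 0 are near these shares. In edgeR 2 neighbors were at an unadjusted p under 0.05, a level for which the share of all genes is not given. MIR31HG, the host transcript of a microRNA, had the most reads, with 4175, 4746, 3995 and 2777.

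CDKN2B lies wholly within the span of CDKN2B-AS1 on the opposite strand, and CDKN2A overlaps its start. Whether reads were counted by strand is not given in the sources used here, and without strand a read shared by both genes cannot be assigned. By GENCODE v29, 1032 protein-coding genes, CDKN2A and CDKN2B among them, lie wholly within a gene on the opposite strand. The gene that encloses CDKN2A is not named here, since by RefSeq CDKN2A overlaps only the start of CDKN2B-AS1. Of the 1032 genes, 923 had reads and 109 (10.6%) had 0 in every library, where 5.7% of the other 17831 did.

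**Figure D2:**
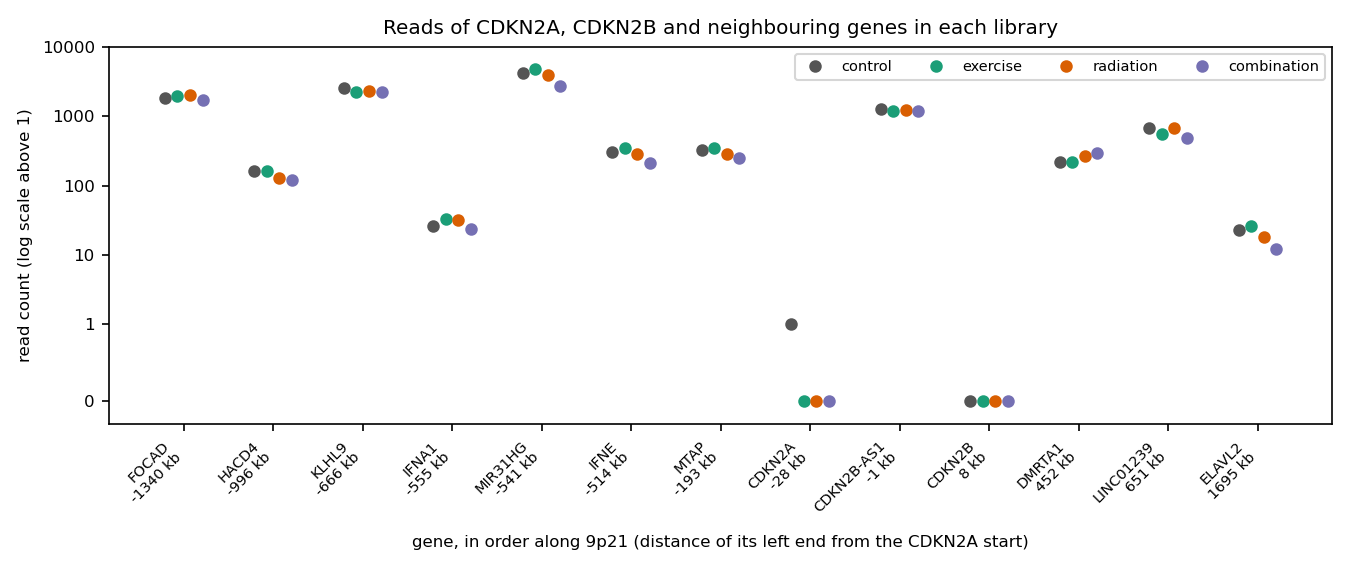
Read counts (vertical axis, logarithmic above 1) of CDKN2A, CDKN2B and 11 neighboring genes in the 4 libraries, in order along 9p21, with the distance of each gene's left end from the CDKN2A start in kb; CDKN2A-DT, with 0 reads, is not drawn. CDKN2A had 1 read in control and CDKN2B had 0 reads everywhere, while MTAP and CDKN2B-AS1 beside them had 252 to 1282 reads.

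Among the RB family, RBL1 was lower in both irradiated libraries, and RB1 and RBL2 were not. RBL1, which encodes p107, a member more abundant in cycling than in resting cells, lies at chr20:36996349-37095997 (minus strand). It had 477 and 507 reads in the control and exercise libraries and 319 and 324 in the radiation and combination libraries, or 13.4, 14.7, 9.17 and 9.89 CPM. The counting intervals of the irradiated libraries did not overlap those of the unirradiated ones. RBL1 was 1.46-fold lower with radiation than in control (1.26 to 1.68) and 1.48-fold lower in the combination than with exercise alone (1.29 to 1.71). The folds with exercise were 1.098 against control (0.967 to 1.25) and 1.08 against radiation alone (0.921 to 1.26), and both intervals included 1.

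RBL2, encoding p130, the member that prevails in resting cells, lies at chr16:53434471-53491648 (plus strand). It had 2443, 2488, 2720 and 2449 reads in control, exercise, radiation and combination, or 68.4, 72.0, 78.2 and 74.8 CPM, and was the only member compared whose highest level was with radiation alone. The radiation library was 1.14-fold above control (1.08 to 1.21) and the combination 1.09-fold above it (1.03 to 1.16). The end of RBL2 overlaps AKTIP, which had 694 to 809 reads.

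RB1, the retinoblastoma gene itself (chr13:48303751-48481890, plus strand), had 2111, 1878, 2019 and 2017 reads in control, exercise, radiation and combination. Its levels of 59.1, 54.4, 58.1 and 61.6 CPM spanned the narrowest range of the 8 members compared on the log2 scale. RB1 was 0.982-fold in radiation relative to control (0.923 to 1.04) and 1.13-fold in the combination relative to exercise alone (1.06 to 1.21). LPAR6, which lies within the span of RB1 on the opposite strand, had 400, 299, 249 and 339 reads and was counted as a gene of its own.

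The makeup of the family thus differed between libraries. Within a library, RBL2 had 5.12 reads for each read of RBL1 in control (4.64 to 5.66) and 4.91 with exercise (4.46 to 5.41). The ratio was 8.53 with radiation (7.59 to 9.61) and 7.56 in the combination (6.73 to 8.51), and the intervals of the irradiated libraries did not overlap those of the other pair. RB1 to RBL1 ratios were 4.43, 3.70, 6.33 and 6.23 in control, exercise, radiation and combination. These ratios need no scaling between libraries.

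LMNB1, at chr5:126776623-126837020 (plus strand), differed most. It encodes a farnesylated lamin of the inner nuclear membrane. There were 847 LMNB1 reads in the control library, 1265 in the exercise library, 360 in the radiation library and 460 in the combination library, or 23.7, 36.6, 10.4 and 14.05 CPM. Exercise alone was the highest library and radiation alone the lowest, and the 4 counting intervals did not overlap.

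LMNB1 was 2.29-fold lower with radiation than in control (2.02 to 2.60) and 2.60-fold lower in the combination than with exercise alone (2.34 to 2.91). It was 1.54-fold higher with exercise than in control (1.41 to 1.69) and 1.36-fold higher when exercise was added to radiation (1.18 to 1.56). Each treatment thus gave a difference of the same sign on both backgrounds, and the departure from additivity, −0.19, had a counting interval (−0.42 to 0.05) that included 0. The combination stayed 1.69-fold below control (1.51 to 1.896).

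Over the 8 members compared, the counting interval of the departure from additivity excluded 0 for CDKN1B, CDKN2C, RB1 (0.21, 0.08 to 0.33) and RBL2 (−0.14, −0.25 to −0.03). It included 0 for LMNB1, RBL1 (−0.03), CDKN2D (0.37, −0.29 to 1.02) and CDKN1C (0.54, −0.58 to 1.67). These intervals cover counting error only and narrow as reads increase. The share of all genes whose interval excluded 0 is not given here, so the split of the members has no background.

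The number of LMNB1 reads relative to those of the other lamins differed between libraries. LMNA, the A-type lamin gene, had 12582, 13399, 13891 and 13637 reads in control, exercise, radiation and combination, and the ratio of LMNA to LMNB1 reads was 14.9, 10.6, 38.6 and 29.7. LMNB2, which encodes the other B-type lamin, had 2249, 2603, 1632 and 1535 reads. Its ratio to LMNB1 was 2.66 in control (2.45 to 2.88), 2.06 with exercise (1.92 to 2.20), 4.53 with radiation (4.04 to 5.10) and 3.34 in the combination (3.01 to 3.71).

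**Figure D3:**
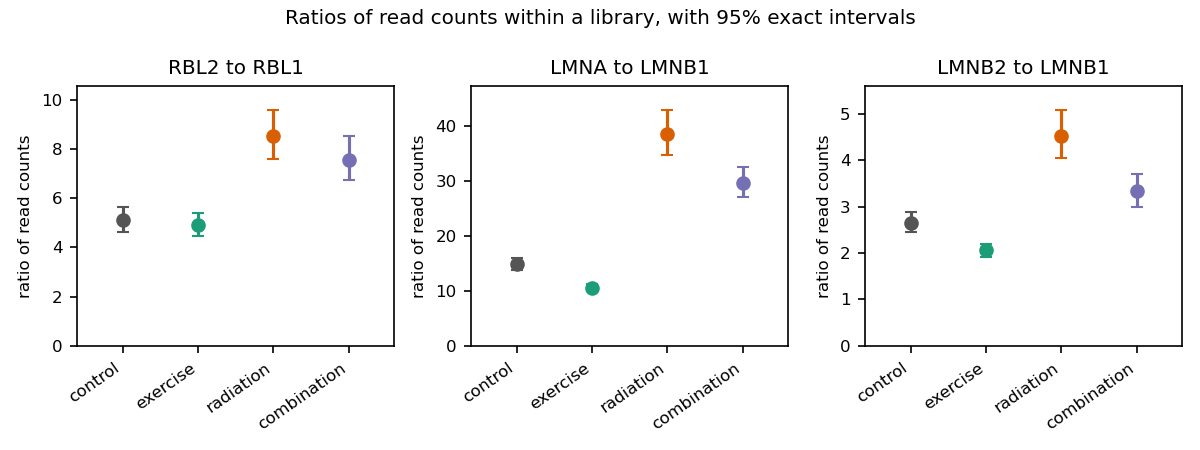
Ratios of read counts within each library (vertical axes) for RBL2 to RBL1, LMNA to LMNB1 and LMNB2 to LMNB1 in the 4 groups (horizontal axes); bars are exact 95% intervals. All 3 ratios were higher in the radiation and combination libraries than in the control and exercise libraries, and LMNA to LMNB1 reached 38.6 with radiation alone.

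At the 2-fold threshold used in the study, few members were called. Between exercise and control 0 of 8 members were at least 2-fold apart, where 1.53% of all genes compared were. Between radiation and control 1 member was, LMNB1, which was lower, beside 2.78% of all genes and 0.897% that were lower. Between the combination and control it was 0 members beside 4.04% of genes, and between the combination and radiation alone 0 beside 1.30%. Between the combination and exercise alone 1 member was called, LMNB1 again and lower, beside 5.98% of all genes in either direction and 3.06% lower. At 1.5-fold, 1 member was called in each comparison: LMNB1 in exercise, radiation and the combination against control (beside 7.05%, 10.1% and 12.7% of genes) and in the combination against exercise (16.0%), and CDKN1C, on 30 against 21 reads, in the combination against radiation (6.57%).

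The median log2 ratio of the 8 members was −0.46 for radiation against control, with 7 below 0 and 1 above, where all genes had a median of 0.0007. Against exercise alone, the median for the combination was −0.04, with 4 members below 0 and 4 above. The medians for exercise against control, the combination against control and the combination against radiation were 0.06, −0.10 and 0.26. Several of these comparisons share a library, so their values stand side by side and are not independent.

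**Figure D4:**
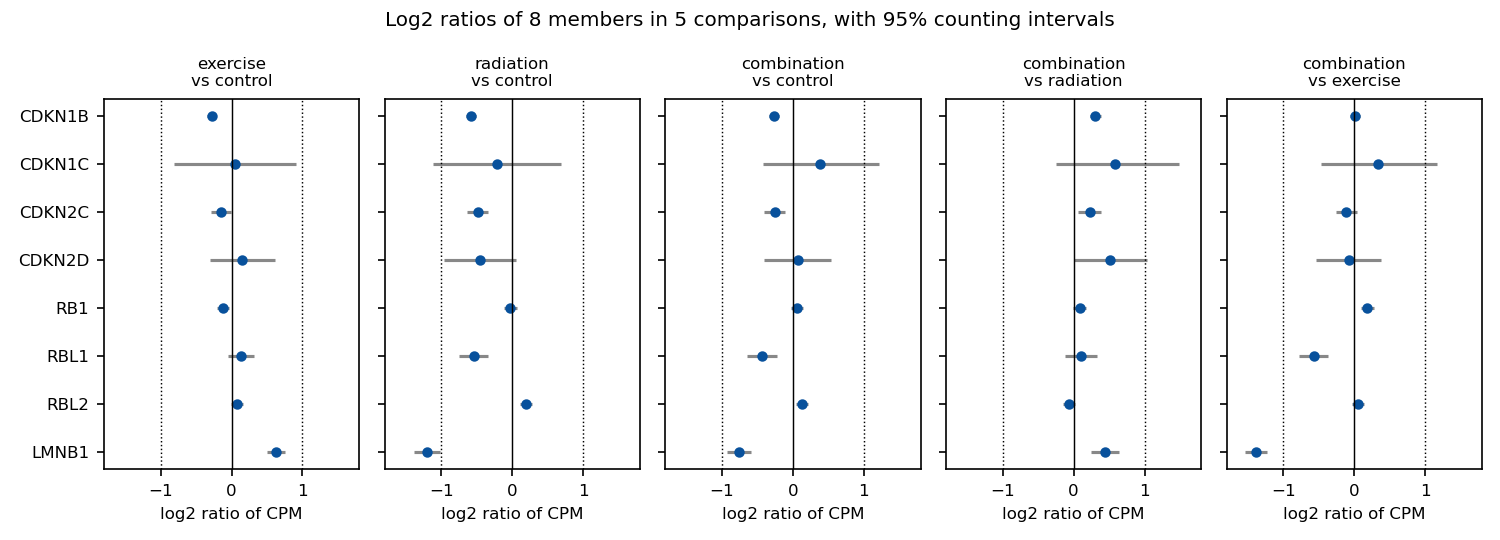
Log2 ratio of CPM (horizontal axes) of each of the 8 members compared, in the 5 comparisons (panels); bars are 95% counting intervals and dotted lines mark 2-fold. LMNB1 lay beyond the 2-fold line in radiation against control (−1.20) and the combination against exercise (−1.38), and CDKN1B was at −0.58 in the first and 0.01 in the second.

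An additive model with a term for radiation and a term for exercise used each treatment in 2 libraries and its absence in 2. It was fitted to all 19393 genes with edgeR's quasi-likelihood test. Its p-values weigh the size of a term against the departure of these 4 libraries from additivity, pooled in part over genes. They do not cover the spread between tumors. The radiation term passed for 2 of 8 members, both lower, beside 9.30% of all genes in either direction and 3.75% lower. LMNB1 fell by 1.29 on the log2 scale (Benjamini-Hochberg adjusted p = 5.384e-05, edgeR) and RBL1 fell by 0.56 (adjusted p = 0.0333), and each was lower in 2 of 2 irradiated libraries than in either unirradiated one. With DESeq2 the RBL1 term was −0.55 with an adjusted p of 0.197 and did not pass. The terms of CDKN1B (−0.28, adjusted p = 0.201) and CDKN2C (−0.30, adjusted p = 0.178) did not pass in edgeR. The other members, RB1, RBL2, CDKN1C and CDKN2D, had terms of 0.08, 0.12, 0.08 and −0.26.

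The exercise term passed for 0 of 8 members in edgeR and in DESeq2, beside 0.0825% of all genes in edgeR. At an unadjusted p under 0.05 it held 1 member, LMNB1, with a log2 term of 0.54 and an adjusted p of 0.262 (edgeR).

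Genes around the members followed their own patterns under the radiation term. Of 16 E2F target genes 11 fell (8 passed in DESeq2) and 0 rose, with a median log2 ratio of radiation to control of −0.41 and of −0.79 for the combination to exercise. RRM2, the small subunit of ribonucleotide reductase, had 987, 1359, 520 and 549 reads in control, exercise, radiation and combination. The replication licensing factor CDT1 had 207, 284, 124 and 121. Thymidylate synthase TYMS and the replication clamp PCNA did not pass, with terms of 0.31 and 0.18.

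Of 10 E2F and DP factors 3 fell, E2F1, E2F2 and E2F8, and 0 rose, while with DESeq2 0 of the 10 passed. E2F8, a repressor of the family, had a log2 ratio of −1.05 for radiation to control and E2F2, an activator, one of −0.76. E2F7 and TFDP2, at the other end of the list, had 0.15 and 0.02. Of 7 MuvB and DREAM partners only MYBL2, the B-MYB factor that joins MuvB in S phase, passed (log2 term −1.25), while LIN9 at −0.62 did not pass and LIN37 and LIN52 had terms of 0.15 and −0.04.

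Of 12 CDKs and cyclins 4 fell (3 passed in DESeq2), CDK1, CCNA2, CCNB1 and CCNB2, all of which act in S phase or mitosis, and 0 rose. CDK4 and CDK6, the targets of the INK4 proteins, had log2 ratios of −0.04 and 0.18 for radiation to control. Their partner CCND1 had 13591, 13874, 16625 and 16208 reads in control, exercise, radiation and combination, and CCND2 had 7, 17, 33 and 32, and neither term passed. Of 6 genes for p27 turnover, CKS1B and CKS2, small CDK-binding proteins, fell by 0.57 and 0.74 on the log2 scale, with 1 of the list passing in DESeq2, while the ubiquitin ligase subunits SKP1, CUL1, RBX1 and SKP2 did not pass.

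Of 7 lamins and lamina partners 3 fell: TMPO, encoding lamina-associated LAP2 proteins, by 0.67, LBR, the lamin B receptor, by 0.57, and LMNB2 by 0.55 on the log2 scale. LMNA and EMD, encoding emerin, had terms of 0.14 and 0.03. The exercise term passed for 0 genes of the 6 lists of cell cycle and lamina genes in edgeR and in DESeq2. In edgeR, 14 of 58 genes were at an unadjusted p under 0.05 for this term. The radiation term passed for 24 of the 58 in edgeR, beside 9.30% of all genes, and for 16 in DESeq2. The share of all genes is not given here for the unadjusted level or for DESeq2, so those counts have no background.

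**Figure D5:**
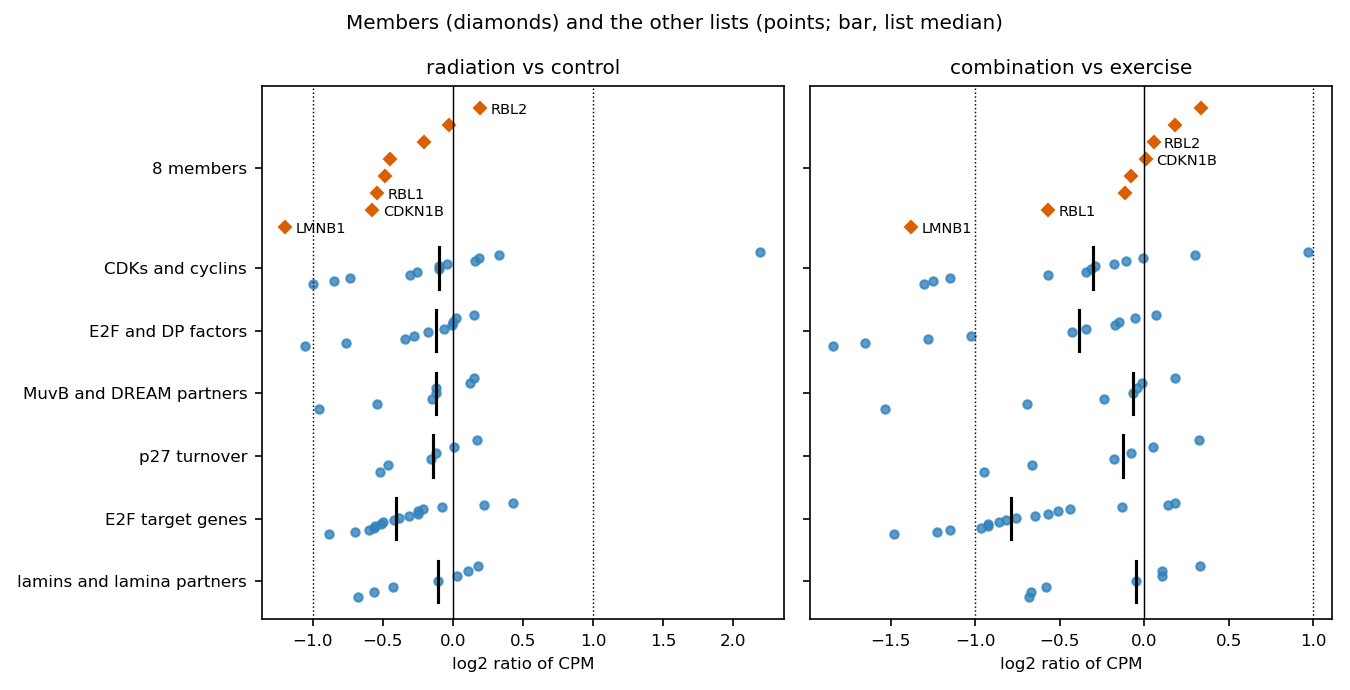
Log2 ratio of CPM (horizontal axes) of the 8 members compared (diamonds) and of the genes of 6 related lists (points, with the list median as a bar) for radiation against control (left) and the combination against exercise (right). LMNB1 lay at −1.20 and −1.38, and E2F target genes had medians of −0.41 and −0.79.

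Some markers of other cell types moved with the same term. Of 7 skeletal muscle genes tested 7 rose in edgeR, where 9.30% of all genes passed in either direction, and 3 passed in DESeq2. MYLPF and TNNT3, also on this list, were below the minimum count. They had 2, 0, 5 and 2 reads and 0, 0, 2 and 1 reads in control, exercise, radiation and combination. MYH1 and MYH2, with 0 reads in control and 11 and 14 with exercise, reached the minimum through the irradiated libraries. Of 5 macrophage genes 2 rose (LYZ and CD68), while CD14, CSF1R and ITGAM did not pass, with terms of 0.76, −0.15 and −0.41. Of 7 fibroblast genes 3 fell (COL1A1, COL1A2 and COL3A1), and 2 passed in DESeq2. The only endothelial gene tested, PECAM1, fell. The summed level of 7 endothelial genes was 20.5, 16.1, 11.4 and 7.15 CPM in control, exercise, radiation and combination. That of 7 macrophage genes was 373, 363, 430 and 494 CPM, of which CSF1R gave 278, 267, 239 and 251 CPM. None of the listed markers was at 0 reads in all 4 libraries. Of 6 epithelial genes 0 passed in edgeR or DESeq2, with 2 at an unadjusted p under 0.05 in edgeR. Whether these counts stand for host cells, and what part such cells have in the LMNB1 and RBL1 differences, was not tested.

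The order of the 4 libraries separated the members into patterns. An order ranks the values whether or not their counting intervals overlap. LMNB1 and RBL1 shared the order exercise, control, combination, radiation from high to low, which 7.67% of all genes compared had. For RBL1 the counting intervals did not separate exercise from control or the combination from radiation. The shared order was also that of 9 of 16 E2F target genes, 5 of 12 CDKs and cyclins and 2 of 6 genes for p27 turnover. It was found in 2 of 7 MuvB and DREAM partners, 2 of 7 lamina genes and 1 of 10 E2F and DP factors. Among the markers, 2 of 6 epithelial genes and 1 of 5 macrophage genes had it. Of the 9p21 neighbors, 1 of 10 did. CDKN1B and CDKN2C were highest in control, with orders held by 2.56% and 4.39% of genes, and RBL2 ran from radiation down to control, an order held by 4.08%.

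Among 15385 genes whose mean count reached 100, those whose centered log2 profile over the 4 libraries lay nearest to a member were named by a set rule for the 3 members with the widest range. For LMNB1 they were LTB, UBE2C and MYOM3-AS1, at root-mean-square distances of 0.0272, 0.0700 and 0.0711 on the log2 scale. UBE2C, a ubiquitin-conjugating enzyme of mitosis, had 266, 441, 110 and 149 reads in control, exercise, radiation and combination. For RBL1 they were BMP6, LBR and NPSR1 (0.0186 to 0.0212), and for CDKN2D MIR6892, KCNH3 and MMD (0.0325 to 0.0355). With 4 libraries, such likeness describes the profile only.

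Levels between members are compared per kilobase of GENCODE v29 exon sequence. CDKN1B was the most abundant member, with a mean over the 4 libraries of 32.7 CPM per kb (26.4 to 39.4), above RBL2 at 10.02 (9.35 to 10.7) and RB1 at 9.03 (8.42 to 9.55), whose ranges overlapped. CDKN2C at 6.64 (5.50 to 7.69) and LMNB1 at 5.83 (2.85 to 10.1) came next and overlapped too. RBL1 at 1.98 (1.54 to 2.46) and CDKN2D at 1.45 (1.09 to 1.66) followed with overlapping ranges, then CDKN1C at 0.297, CDKN2A at 0.00162 and CDKN2B at 0. These ranges are over the 4 conditions. Whether reads in introns were counted is not given in the sources used here, and if they were, values per exon kilobase are too high for genes with long introns, such as RB1, RBL1, RBL2 and LMNB1, and the order may differ. The lengths implied by the deposited FPKM were those of the whole gene with its introns for RB1, RBL1, RBL2 and LMNB1, so that FPKM places these long genes lower: the mean FPKM of LMNB1 was 0.353 and that of CDKN2D 0.866.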

How the data were processed

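The authors made polyA-selected libraries with a stranded kit, removed adapters (cutadapt in the submitters' processing notes), aligned the reads to GRCh38 with Bowtie2 2.3.4.1, which is not splice-aware, and counted them with featureCounts 1.6.0. They deposited read counts per gene, not normalized, and FPKM. For the strand setting and for mouse reads, the method is not given in the sources used here.

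Counts were scaled to CPM by TMM (edgeR 4.0.16, R 4.3.3) with a prior of 0.5 counts for log2 ratios, and genes were compared where their mean count reached 20. The additive model was a quasi-likelihood fit with 1 residual degree of freedom and a Benjamini-Hochberg threshold of 0.05. Scripts used python 3.11.15 with scipy 1.17.1 and were tested on simulated data. Alternatives were DESeq2 1.42.0, median-of-ratios and total-count scaling, priors of 0.1 and 2 counts, no minimum and a minimum of 100, a 1.5-fold threshold, and FPKM with 0.1 added.

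The members and gene lists were chosen with earlier results of these data known. Genes named were all members, the 2 highest and 2 lowest of each related list by the log2 ratio of radiation to control (not all are given), the 9p21 genes, genes overlapping a member, and the 3 nearest profiles. CDK4, CDK6, E2F1, CCNB1, CCNB2, SKP2, RBX1, LMNB2 and the markers that passed were named after their values were seen. Coordinates are from RefSeq GRCh38.p14. A sequence comparison between CDKN2A and CDKN2B is not reported here.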

Additional observations from a re-analysis of the deposited data

Results flagged for a closer look

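For CDKN1B and CDKN2C, adding exercise went in opposite directions without and with radiation, with both counting intervals clear of no difference. For CDKN1B the log2 ratio was −0.28 for exercise against control and 0.30 for the combination against radiation alone. For CDKN2C the values were −0.15 and 0.22. The difference between the effects was not tested, since each group is 1 library, and the intervals do not cover the spread between tumors. How many of all genes changed sign in this way is not given here.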

How the results depend on the processing

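No paired analysis was possible because each group has 1 library, and for the same reason no replicate could be left out. With a 1.5-fold threshold, 1 member was called in exercise against control (LMNB1), 1 in the combination against control (LMNB1) and 1 in the combination against radiation (CDKN1C, with 30 against 21 reads), where 2-fold called 0. With no minimum count CDKN2A, with 1 read against 0, was added to each comparison with control, giving 1 member for exercise, 2 for radiation and 1 for the combination. With FPKM plus 0.1, 0 members were 2-fold apart between radiation and control, and LMNB1 had a log2 ratio of −0.91, which the added constant pulls toward 0 for a long gene. The radiation term called 1 member with DESeq2 in place of 2. The exercise term called 1 member, LMNB1, with no minimum count (adjusted p = 0.027, edgeR), and 0 under the other alternatives, where its adjusted p was 0.107 to 0.9999. With total-count scaling the exercise terms of CDKN1B and RBL2 were −0.0096 and −0.015 in place of 0.0099 and 0.0044. Of the recomputed log2 ratios of members, 192 moved by less than their counting interval and 8 by more, 7 of these with FPKM. The ratios of CDKN1C and CDKN2D are limited by depth, and no value here is backed by a replicate.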
